A study of Homo sapiens with 18 samples.

Results

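This account covers 10 genes of the circadian clock, BHLHE40, BHLHE41, PER1, PER2, PER3, CRY1, CRY2, NR1D1, NR1D2 and DBP, chosen by name as transcriptional repressors of the clock and a clock output gene. All 10 were found by symbol among the 23106 genes counted in every sample. PolyA+ RNA was sequenced from 3 established human cell lines in normoxia and hypoxia, with 3 replicates per group and 18 samples in all. HKC-8 is a kidney proximal tubule line, RCC4+VHL is a kidney cancer line stably carrying the wild-type VHL tumour suppressor, and HepG2 is a hepatocellular cancer line. Hypoxic HKC-8 cells were held at 0.5% oxygen for 16 h by their sample characteristics, while their titles give 0.1%, and the titles of the normoxic HKC-8 samples give 21%. Hypoxic RCC4+VHL cells were held at 1.0% for 24 h and hypoxic HepG2 cells at 0.5% for 16 h by the labels. For the RNA-seq of all 3 lines a figure legend of the study gives 0.5% and 16 h, and its text names RCC4 without VHL. Library depth spanned 40915980 to 97984260 counts, and HKC-8 libraries were the deepest.

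The labelled cell types were compared with marker genes. The summed normalised count of 8 hepatocyte markers was 3.51e+04 to 4.57e+04 CPM in the HepG2 samples, 8.81 to 11.1 CPM in RCC4+VHL and 0.264 to 0.539 CPM in HKC-8. Of 8 proximal tubule markers, HKC-8 samples held 1 over 1 CPM, ANPEP, so most of the defining tubule markers were near 0 in this line, and their sum of 2.12 to 4.65 CPM was below the 290 to 332 CPM of HepG2. The 4 renal epithelial markers summed to 156 to 200 CPM in HKC-8, 478 to 582 CPM in RCC4+VHL and 16.8 to 34.1 CPM in HepG2. Markers of blood, endothelial and stromal cells summed to 11.8 to 27.8 CPM in HKC-8, 43.7 to 66.2 CPM in RCC4+VHL and 28.1 to 73.9 CPM in HepG2, with PDGFRB or COL1A1 as the most abundant gene. In each line this sum was higher in all hypoxic than in all normoxic samples, most in HepG2, at 28.1 to 31.5 CPM in normoxia and 64.5 to 73.9 CPM in hypoxia. The rise was mainly in PDGFRB, while COL1A1 was lower in all hypoxic RCC4+VHL samples (2.36 to 2.67 CPM in normoxia, 1.86 to 2.28 CPM in hypoxia), overlapped in HKC-8 and was higher in all hypoxic HepG2 samples (5.44 to 7.32 CPM in normoxia, 9.05 to 9.68 CPM in hypoxia). In RCC4+VHL the renal epithelial sum went from 557 to 582 CPM in normoxia to 478 to 537 CPM in hypoxia, and the tubule sum from 168 to 178 CPM to 143 to 152 CPM. In HepG2 the hepatocyte sum went from 3.51e+04 to 3.66e+04 CPM in normoxia to 4.21e+04 to 4.57e+04 CPM in hypoxia, the renal epithelial sum from 16.8 to 21.2 CPM to 30.7 to 34.1 CPM and the tubule sum from 290 to 301 CPM to 320 to 332 CPM. Within the hepatocyte list FGB was lower in all hypoxic HepG2 samples (182 to 250 CPM in normoxia, 121 to 177 CPM in hypoxia) and ALB overlapped, so the sum does not stand for each marker. The part of these shifts in the results below was not tested. In bulk samples fewer cells of a type and less RNA per cell cannot be told apart.

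In the mammalian clock, the activators CLOCK or NPAS2 and ARNTL bind E-box elements and drive the genes of their own repressors. PER and CRY proteins feed back on that complex, NR1D1 and NR1D2 repress ARNTL, and the basic helix-loop-helix repressors BHLHE40 and BHLHE41 compete at E-boxes. DBP activates genes with D-box elements, and both BHLHE40 and BHLHE41 are also known as target genes of the hypoxia-inducible factors.

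BHLHE40 and BHLHE41 are the members with the largest responses, so the RefSeq sequence before their start sites is shown. The 250 bases upstream of each were taken from a table of GRCh38.p14 promoters and placed on GRCh37 by exact match. BHLHE40 lies on chromosome 3 from 5021122 to 5027008 on the plus strand, and its stretch is chr3:5020872-5021121. BHLHE41 lies on chromosome 12 from 26272963 to 26277970 on the minus strand, and its stretch is chr12:26277971-26278220. Both stretches lie outside annotated exons of their gene, just upstream of it. Capitals mark the hypoxia-response core, ACGTG or GCGTG on either strand, and the E-box CACGTG, which contains ACGTG.
BHLHE40: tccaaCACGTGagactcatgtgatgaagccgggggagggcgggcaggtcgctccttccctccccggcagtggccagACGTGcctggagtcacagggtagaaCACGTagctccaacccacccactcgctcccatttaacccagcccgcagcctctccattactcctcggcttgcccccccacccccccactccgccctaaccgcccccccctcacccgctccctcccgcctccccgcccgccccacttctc
BHLHE41: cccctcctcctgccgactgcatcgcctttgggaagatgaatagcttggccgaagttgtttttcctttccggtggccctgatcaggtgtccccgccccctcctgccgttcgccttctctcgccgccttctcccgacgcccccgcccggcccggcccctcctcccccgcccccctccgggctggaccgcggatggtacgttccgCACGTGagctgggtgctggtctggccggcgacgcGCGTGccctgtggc
The BHLHE40 stretch held 1 E-box and the BHLHE41 stretch held 1. Over 34796 distinct promoter sequences of 300 bases, 7.20% held CACGTG and 48.4% held ACGTG or GCGTG on either strand. Among the 10 genes, 4 held an E-box and 10 held a hypoxia-response core in at least 1 of their 13 promoter entries. These matches describe letters only, and binding was not analysed here.

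The question for each line was which of the 10 genes changed in hypoxia. In normoxic HKC-8 cells BHLHE40 stood at 18.6, 16.1 and 20.9 CPM, and in hypoxia at 214, 144 and 184 CPM. In normoxic RCC4+VHL cells it stood at 73.4, 81.2 and 72.5 CPM, and in hypoxia at 203, 197 and 191 CPM. In normoxic HepG2 cells it stood at 22.1, 25.8 and 39.4 CPM, and in hypoxia at 212, 195 and 231 CPM. All hypoxic samples were above all normoxic samples of their line, and the hypoxic groups of the 3 lines overlapped. The normoxic groups did not overlap, with RCC4+VHL highest. By edgeR, BHLHE40 rose 9.77-fold in HKC-8 (log2 fold change 3.29, SE 0.16, adjusted p = 6.07e-06). It rose 2.61-fold in RCC4+VHL (1.38, SE 0.04, adjusted p = 6.93e-18 in edgeR) and 7.32-fold in HepG2 (2.87, SE 0.16, adjusted p = 1.06e-08). The labels of RCC4+VHL hypoxia give another exposure and its normoxic level was higher, so the smaller fold cannot be told apart from these differences.

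BHLHE41, the paralogue of BHLHE40, stood at 0.444, 0.591 and 0.693 CPM in normoxic HKC-8 cells and at 3.75, 4.40 and 3.12 CPM in hypoxia. In RCC4+VHL it stood at 5.95, 5.18 and 4.89 CPM in normoxia and at 12.1, 11.4 and 10.6 CPM in hypoxia. In HepG2 it stood at 0.272, 0.313 and 0.477 CPM in normoxia, from 12 to 20 counts, and at 1.88, 1.91 and 2.95 CPM in hypoxia. All hypoxic samples of each line were above its normoxic samples, and normoxic RCC4+VHL cells were above hypoxic HKC-8 and HepG2 cells. The fold was 6.52 in HKC-8 (log2 fold change 2.70, SE 0.24, adjusted p = 0.000156 in edgeR), 2.13 in RCC4+VHL (1.09, SE 0.10, adjusted p = 5.24e-09) and 6.30 in HepG2 (2.66, SE 0.30, adjusted p = 1.53e-05). On a scale per transcript length, BHLHE40 was 39.3 ± 9.30 times BHLHE41 in normoxic HKC-8 cells (SD, n = 3), 17.0 ± 2.03 times in RCC4+VHL and 97.5 ± 0.681 times in HepG2. Hypoxic samples had ratios between 92.9 and 134 in HepG2, between 38.8 and 70.1 in HKC-8 and between 19.9 and 21.4 in RCC4+VHL. The ratio in normoxic HepG2 cells rests on 12 to 20 counts of BHLHE41, and its SD understates the counting error at that depth.

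**Figure D1:**
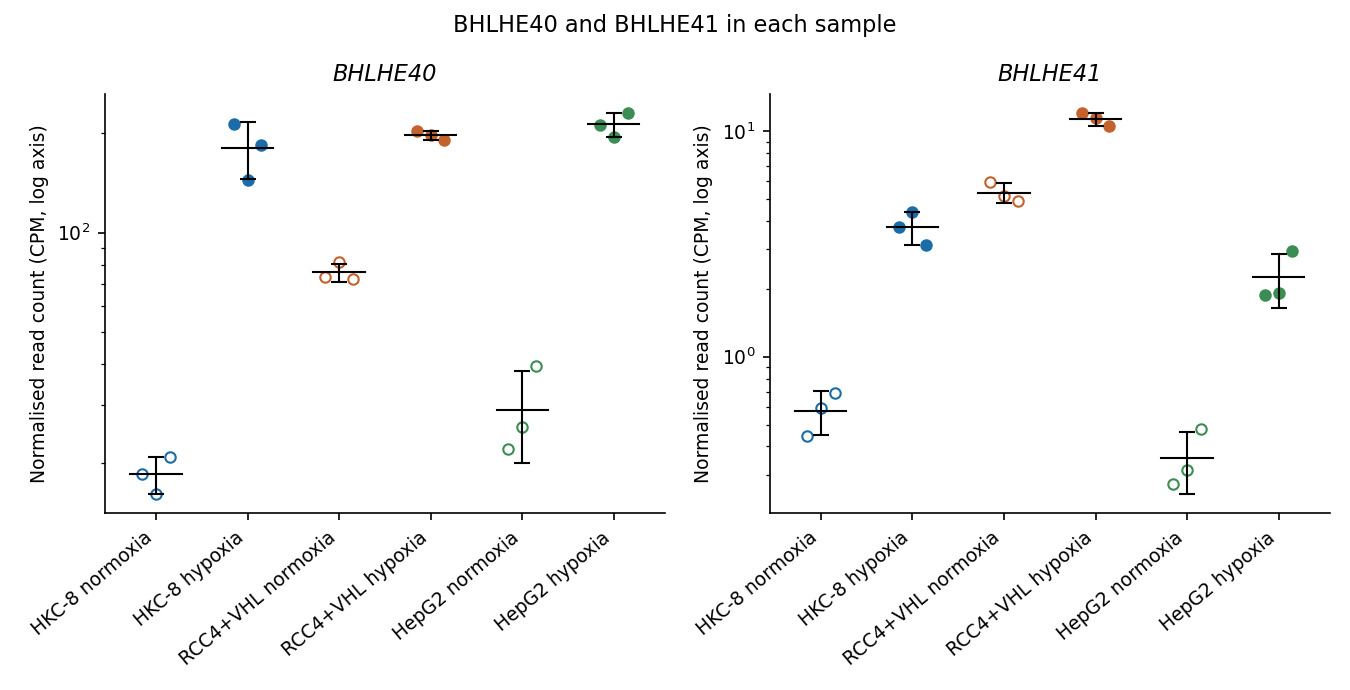
TMM-normalised counts (CPM) of BHLHE40 (left) and BHLHE41 (right) in each of the 18 samples, on log axes. Open points are normoxic and filled points hypoxic samples, and black bars are the mean and SD of 3 replicates. All hypoxic samples lie above the normoxic samples of their line.

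Of the 10 genes, 2 were called higher in hypoxic HKC-8 cells, BHLHE40 and BHLHE41, where 11.2% of 13536 genes were called higher. None was called lower by edgeR (9.12% of all genes), and 0 were lower at an unadjusted p under 0.05 or by DESeq2. In RCC4+VHL, 3 were called higher (25.9% of 12811 genes) and 1 lower (24.2%). In HepG2, 2 were called higher (19.9% of 13623 genes) and 3 lower (19.2%). The median log2 fold change of the 10 genes was 0.36 in HKC-8, 0.01 in RCC4+VHL and -0.14 in HepG2, beside medians over all genes of 0.00 in each line. BHLHE40 and BHLHE41 were called in all 3 lines, 5 members in 1 line and 3 members, PER1, CRY2 and DBP, in none. This tally uses the fits without a block. With the replicate number as a block, which pairs the HKC-8 samples, 4 members were called higher in HKC-8, BHLHE40, BHLHE41, PER1 and PER2, so that PER1 was called in 1 line and PER2 in 2. In that fit 2836 of 13536 genes were called higher and 2919 lower, beside 1522 and 1235 without the block.

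**Figure D2:**
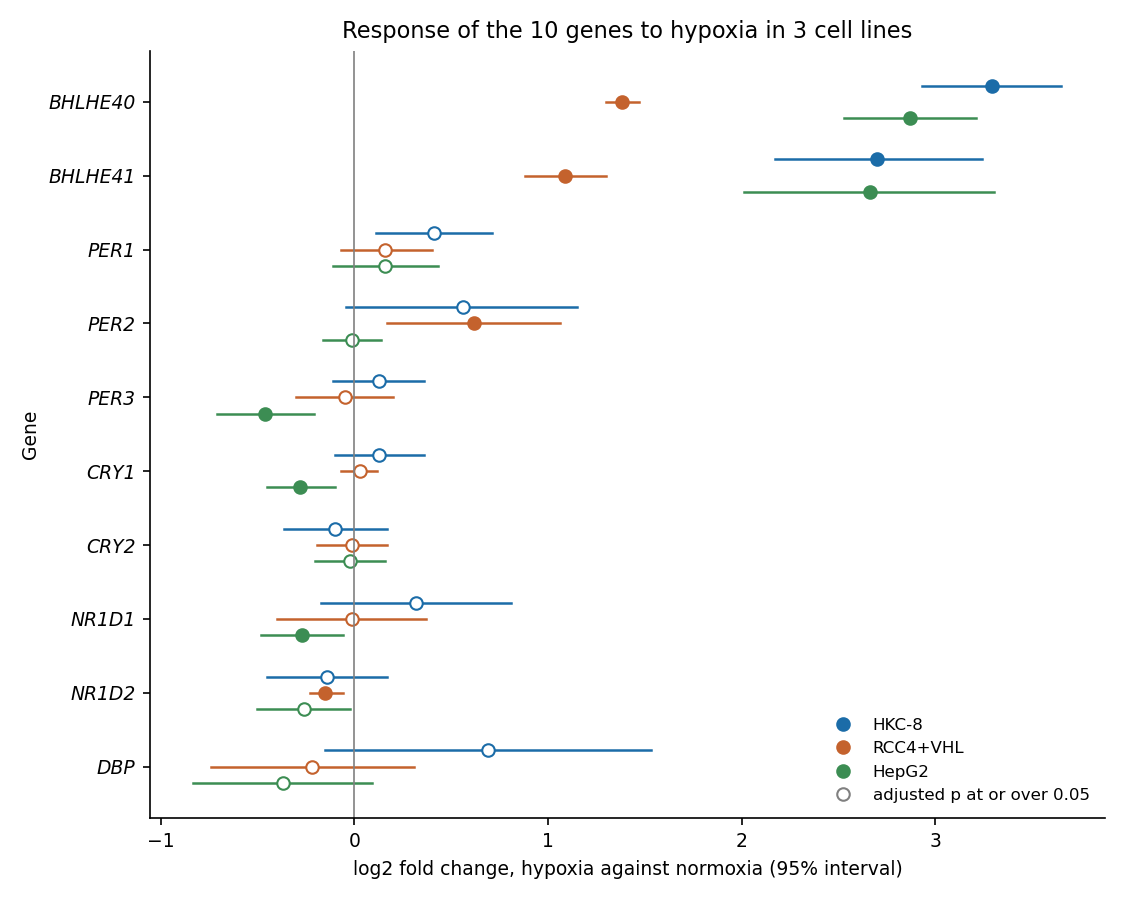
Log2 fold change of hypoxia against normoxia for the 10 genes in 3 cell lines, with 95% intervals as lines. Filled points have an adjusted p under 0.05 in edgeR. BHLHE40 and BHLHE41 lie at 1.09 or above in every line and the other 8 genes lie between -0.46 and 0.69.

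The PER proteins are the period repressors, which act with CRY. PER1 stood at 14.5, 15.6 and 11.9 CPM in normoxic and at 19.9, 19.6 and 16.2 CPM in hypoxic HKC-8 cells. The hypoxic samples were all higher, yet the call was missed (log2 fold change 0.41, SE 0.13, adjusted p = 0.0603 in edgeR). PER1 was called in 4 of 13 alternatives, with the replicate block (adjusted p = 0.00276), by DESeq2 (0.0223), with total count scaling (0.0468) and in the fit of all 18 samples (0.0185), and the adjusted p ranged up to 0.200. In RCC4+VHL and HepG2 the log2 fold change of PER1 was 0.16 in each, with 95% intervals of -0.07 to 0.40 and -0.11 to 0.43.

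PER2 stood at 3.85, 4.73 and 2.62 CPM in normoxic and at 5.90, 6.73 and 3.77 CPM in hypoxic HKC-8 cells, and the groups overlapped. Its log2 fold change was 0.56 (SE 0.26, adjusted p = 0.164 in edgeR). With the replicate block this became 0.55 with adjusted p = 0.00388, within a range of 0.00388 to 0.353 over all alternatives. In RCC4+VHL, PER2 stood at 2.17, 1.99 and 1.52 CPM in normoxia and at 3.46, 3.38 and 1.86 CPM in hypoxia. Hypoxic replicates 1 and 2 were above the normoxic samples and replicate 3 was among them. The gene was called higher (log2 fold change 0.62, SE 0.21, adjusted p = 0.0201 in edgeR). That call was lost in 3 of the 6 fits without 1 sample and in the fit of all 18 samples, with adjusted p from 0.000744 to 0.107 over all alternatives. In HepG2, PER2 stood at 28.9, 29.5 and 31.5 CPM in normoxia and at 30.2, 29.2 and 29.6 CPM in hypoxia, with a log2 fold change of -0.01 (95% interval -0.16 to 0.14).

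PER3 stood at 6.07, 5.84 and 5.90 CPM in normoxic and at 4.31, 4.34 and 4.32 CPM in hypoxic HepG2 cells. The 3 hypoxic samples were all lower and lay close together. PER3 was called lower (log2 fold change -0.46, SE 0.12, adjusted p = 0.00739 in edgeR). In HKC-8 it stood at 12.3, 12.6 and 11.8 CPM in normoxia and at 13.1, 12.9 and 13.9 CPM in hypoxia. The hypoxic HKC-8 samples were all higher by a small margin, without a call (0.13, SE 0.10, adjusted p = 0.424 in edgeR). In RCC4+VHL the change was -0.05 (95% interval -0.30 to 0.20).

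CRY1 and CRY2 encode the cryptochromes, the other arm of the PER and CRY repressor. CRY1 stood at 31.0, 31.8 and 36.5 CPM in normoxic and at 25.6, 28.5 and 27.8 CPM in hypoxic HepG2 cells, and the groups did not overlap. It was called lower (log2 fold change -0.28, SE 0.08, adjusted p = 0.0148 in edgeR). Without HepG2 hypoxia replicate 1 the adjusted p was 0.0796, the highest of a range from 0.00262. In HKC-8 and RCC4+VHL the change was 0.13 (95% interval -0.10 to 0.36) and 0.03 (-0.07 to 0.12). CRY2 had log2 fold changes of -0.10, -0.01 and -0.02 in HKC-8, RCC4+VHL and HepG2, with hypoxic and normoxic samples overlapping in each line.

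NR1D1 and NR1D2 encode the nuclear receptors REV-ERB alpha and beta. NR1D1 stood at 14.2, 13.1 and 14.5 CPM in normoxic and at 12.2, 10.3 and 12.1 CPM in hypoxic HepG2 cells. The hypoxic samples were all lower, and the gene was called lower (log2 fold change -0.27, SE 0.10, adjusted p = 0.0404 in edgeR). That call was lost in 5 of the 6 fits without 1 sample and in the fit of all 18 samples, with adjusted p from 0.00772 to 0.288 over all alternatives. In HKC-8 the change of NR1D1 was 0.32 (95% interval -0.17 to 0.81), from 0.13 to 0.60 over all alternatives and without a call, and in RCC4+VHL it was -0.01 (-0.40 to 0.37). NR1D2 stood at 116, 105 and 112 CPM in normoxic and at 98.6, 103 and 97.4 CPM in hypoxic RCC4+VHL cells. Every hypoxic sample was lower, and the call was lower (log2 fold change -0.15, SE 0.04, adjusted p = 0.00470 in edgeR). In the fit of all 18 samples the adjusted p was 0.366, the highest of a range from 7.27e-05. In HepG2 the change of NR1D2 was -0.26 without a call (adjusted p = 0.0843 in edgeR), and it was called with total count scaling (adjusted p = 0.0218) and without HepG2 normoxia replicate 2 (0.0290), within a range of 0.0218 to 0.285. In HKC-8 it was -0.14 (95% interval -0.45 to 0.17).

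DBP, an activator whose gene is a classical clock output, had 13 to 101 counts per sample. Its log2 fold changes were 0.69 (95% interval -0.15 to 1.53) in HKC-8, -0.22 (-0.74 to 0.31) in RCC4+VHL and -0.37 (-0.83 to 0.09) in HepG2. All hypoxic samples were above the normoxic ones in HKC-8 and below them in HepG2, and the intervals are wide at this depth. Exons of SPHK2 on the opposite strand cover 661 bases of the DBP transcript, those of THRA 473 bases of NR1D1, those of UTS2 868 bases of PER3 and those of SSPN 162 bases of BHLHE41. The strand setting of the counting is not stated in the labels, and the part of these overlaps in the counts was not tested.

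**Figure D3:**
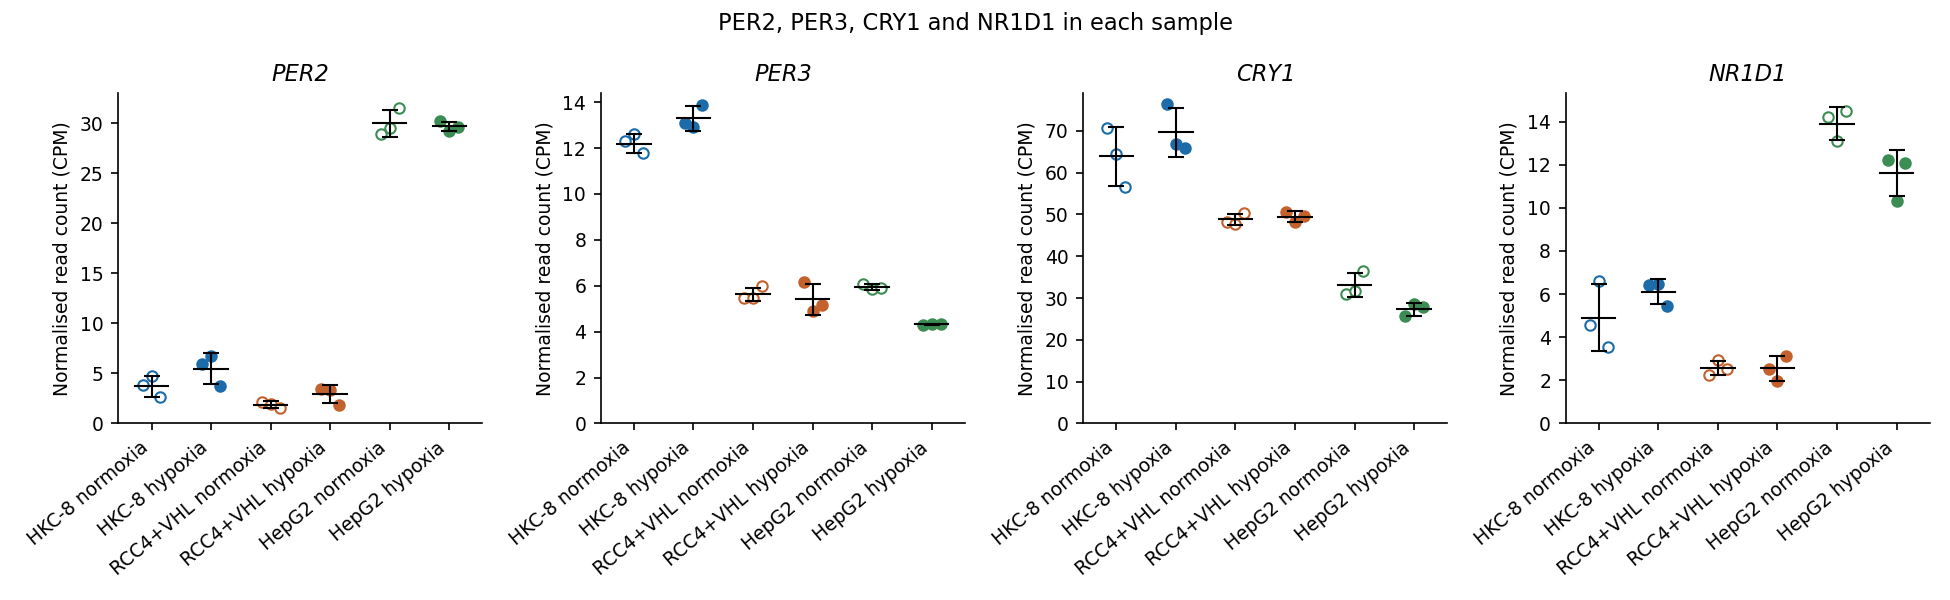
TMM-normalised counts (CPM) of PER2, PER3, CRY1 and NR1D1 in each of the 18 samples, on axes from 0. Open points are normoxic and filled points hypoxic samples, with the mean and SD of 3 replicates. PER3, CRY1 and NR1D1 are lower in all hypoxic HepG2 samples than in all normoxic ones.

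The response of HKC-8 and HepG2 cells was compared by an interaction term in 1 fit of 12 samples, and RCC4+VHL was not part of it since its labels give another exposure. By their titles the hypoxic HKC-8 cells were at 0.1% oxygen, so a difference in exposure cannot be told apart from a difference between these lines either. Of the 10 genes, 1 was called, PER3, where 9.30% of 15046 genes were called. The log2 difference for PER3 was 0.58 (SE 0.14, adjusted p = 0.0191 in edgeR), from 0.13 in HKC-8 and -0.46 in HepG2. The PER3 call was lost without HepG2 normoxia replicate 1 (adjusted p = 0.0506) and without HepG2 hypoxia replicate 1 (0.0519), within a range of 0.00170 to 0.0519 over all alternatives. The largest difference of a member was that of DBP, without a call (1.05, 95% interval 0.19 to 1.92, adjusted p = 0.124 in edgeR). BHLHE40 and BHLHE41 gave differences of 0.41 (95% interval -0.12 to 0.95) and 0.04 (-0.87 to 0.95), and these intervals include 0. Over all alternatives the BHLHE40 difference ranged from 0.13 to 0.58 and that of BHLHE41 from -0.23 to 0.28, without a call. With the replicate block, PER2 (0.56, adjusted p = 0.00397 in edgeR), CRY1 (0.40, 0.00839) and NR1D1 (0.62, 0.0207) were called as well, making 4 members. In that fit 20.1% of all genes were called. The block there pairs the HepG2 samples as well as those of HKC-8, although the HepG2 numbers were not taken as pairs. The main adjusted p-values of PER2, CRY1 and NR1D1 were 0.222, 0.0817 and 0.163. In 1 further alternative each, PER2 was called without HKC-8 hypoxia replicate 3 (0.0462), CRY1 in the fit of all 18 samples (0.0284) and NR1D1 without HKC-8 normoxia replicate 2 (0.0146).

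Normoxic levels were compared among the lines in 1 fit of 9 samples, and the 3 contrasts share their samples. All 10 members differed between RCC4+VHL and HKC-8, where 80.8% of 14806 genes did, and between HepG2 and HKC-8, where 83.0% did. Between HepG2 and RCC4+VHL, 8 members differed, beside 83.3% of genes. Beside these shares of all genes, the counts of members are no result of their own. BHLHE40 was 4.11-fold and BHLHE41 9.30-fold higher in normoxic RCC4+VHL than in HKC-8 (log2 2.04, SE 0.17, adjusted p = 5.93e-08; and 3.22, SE 0.23, adjusted p = 1.29e-08 in edgeR). BHLHE41 was lower in HepG2 than in HKC-8 (log2 -0.69, SE 0.29, adjusted p = 0.0425 in edgeR), a call lost in 7 of the 9 fits without 1 sample, with adjusted p from 0.0131 to 0.119. PER2 was 8.15-fold higher in HepG2 than in HKC-8 and 15.8-fold higher than in RCC4+VHL (log2 3.03, SE 0.18, and 3.98, SE 0.20). NR1D1 was 2.88-fold and 5.43-fold higher in HepG2 in the same contrasts, while NR1D2 was 4.20-fold and 7.62-fold lower. PER1, PER3 and CRY1 had their highest mean in HKC-8, in hypoxia. For CRY2, called in RCC4+VHL against HKC-8, 2 of the 9 fits without 1 sample lost the call, and for PER1 in HepG2 against RCC4+VHL also 2 of 9.

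Per transcript length, BHLHE40 stood at 5.88 ± 0.750 RPKM in normoxic HKC-8, 24.0 ± 1.52 RPKM in RCC4+VHL and 9.23 ± 2.88 RPKM in HepG2 (SD, n = 3). In hypoxia it stood at 57.4 ± 11.2, 62.5 ± 1.80 and 67.5 ± 5.57 RPKM and was the highest of the 10 genes in each line. BHLHE40 made up 12.1% ± 1.88 of the summed RPKM of the 10 genes in normoxic HKC-8 cells and 54.9% ± 3.74 in hypoxic ones (SD, n = 3). In HepG2 the share went from 21.7% ± 4.51 to 69.5% ± 1.61 and in RCC4+VHL from 34.4% ± 1.82 to 57.8% ± 0.436, with BHLHE40 the highest of the 10 in every normoxic RCC4+VHL sample. In normoxic HKC-8 the highest level was that of CRY1, at 21.4 ± 2.39 RPKM. In normoxic HepG2 CRY1 had the highest mean, at 11.1 ± 0.990 RPKM, while BHLHE40 was highest in replicate 3.

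**Figure D4:**
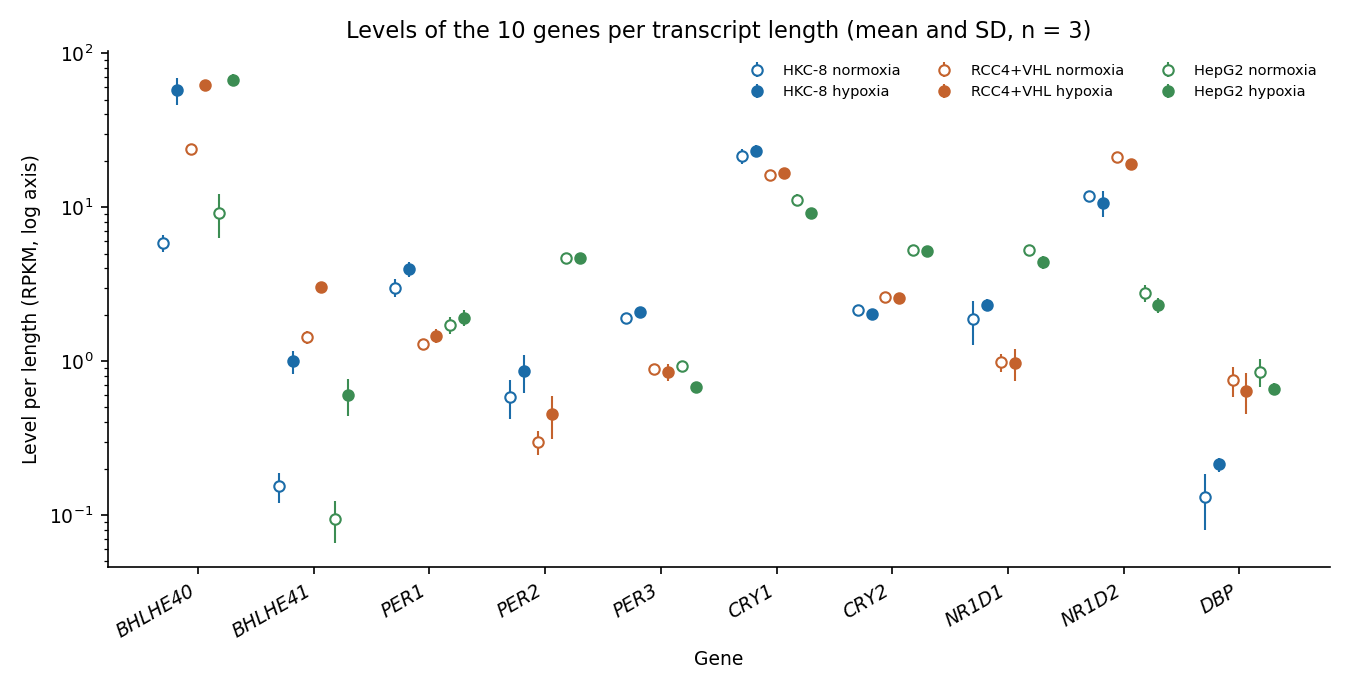
Mean level per kilobase of the canonical transcript (RPKM, log axis) of the 10 genes in each group, with SD of 3 replicates. Open points are normoxic and filled points hypoxic groups. BHLHE40 in hypoxia lies at 57.4 to 67.5 RPKM, above the other 9 genes.

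Among the other clock genes, 7 activators and ROR receptors, 11 D-box and output regulators and 13 kinases, ubiquitin ligases and partners of PER and CRY were examined. Of all genes, 11.2% were called higher and 9.12% lower in HKC-8, 25.9% and 24.2% in RCC4+VHL, and 19.9% and 19.2% in HepG2, and the counts in this and the next paragraph stand beside these shares, without a test of any list. Of the activators, 1 rose in HKC-8 (4 tested), 2 rose and 1 fell in RCC4+VHL (5 tested), and 1 rose and 1 fell in HepG2 (6 tested). RORA, a nuclear receptor that competes with the NR1D proteins, rose 21.4-fold in HKC-8 (log2 4.42, SE 0.27) and 5.67-fold in HepG2 (2.50, SE 0.09). The HKC-8 fold starts from 13 to 15 counts per normoxic sample (0.143 to 0.185 CPM). Hypoxic HKC-8 samples, at 2.72 to 4.02 CPM, stayed below normoxic HepG2 samples at 6.29 to 7.14 CPM. In RCC4+VHL, at 3 to 20 counts per sample, RORA was called neither in the main fit (0.62, SE 0.55, adjusted p = 0.368 in edgeR) nor in any alternative. ARNTL, the partner of CLOCK, was called in RCC4+VHL (0.65, SE 0.10) and CLOCK too (0.36, SE 0.05), while NPAS2 fell there (-0.49, SE 0.10). In HepG2 ARNTL, CLOCK and NPAS2 were called neither in the main fit nor in any alternative. Their log2 fold changes there ranged over the alternatives from 0.02 to 0.20, from -0.17 to 0.03 and from -0.14 to -0.02. CLOCK was not called in HKC-8 either, with 0.00 to 0.06 over the alternatives. In HKC-8, ARNTL was not called (adjusted p = 0.0829 in edgeR) and was called in 3 of 13 alternatives, with the replicate block (0.0135), by DESeq2 (0.0409) and in the fit of all 18 samples (0.0204). Of the D-box and output regulators, 6 rose and 1 fell in HKC-8, 4 rose and 1 fell in RCC4+VHL, and 4 rose and 1 fell in HepG2. NFIL3, a repressor at D-boxes, rose in each line (1.13, 0.71 and 0.46). CIART, a circadian repressor, rose in HKC-8 (2.89) and RCC4+VHL (2.53) and was not tested in HepG2, with 0 to 12 counts there. USP2 fell in each line (-0.84, -1.26 and -0.97). Of the 13 PER and CRY partners, 12 were tested in HKC-8. By edgeR without a block none of these was called. At an unadjusted p under 0.05, 2 were higher and 2 lower, and by DESeq2 1 was higher and 1 lower. In RCC4+VHL 4 rose and 3 fell, and in HepG2 5 rose and 1 fell. The median log2 fold change of the D-box and output regulators was 0.50, 0.10 and 0.15 in HKC-8, RCC4+VHL and HepG2. TSC22D3, a glucocorticoid-responsive gene, rose in HKC-8 (1.66, SE 0.29) and was not called in RCC4+VHL (0.03) or HepG2 (0.05), and the difference from HepG2 was called (1.60).

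Of 11 relatives of BHLHE40 in the HES and HEY family, 2 rose in HKC-8 (6 tested), 1 rose and 4 fell in RCC4+VHL (6 tested), and 2 rose and 1 fell in HepG2 (5 tested). HES2 rose in HKC-8 from 3 to 6 counts per sample to 18 to 21 (log2 2.09, SE 0.47), a call lost in 3 of the 6 fits without 1 sample, with adjusted p from 0.0223 to 0.0713 in edgeR. Of the 4 reference genes induced by hypoxia, VEGFA had log2 fold changes of 1.72, 0.87 and 1.38 and ADM of 1.74, 3.29 and 3.05 in HKC-8, RCC4+VHL and HepG2. CA9 rose by 4.92 and EGLN3 by 2.38 on the log2 scale in HKC-8, and by 8.45 and 5.30 in HepG2. Normoxic HepG2 samples held 18 to 31 counts of CA9 and 18 to 63 of EGLN3. Neither gene was tested in RCC4+VHL, at 0 to 7 counts per sample. BHLHE40 ranked at 40 of 13536 genes by fold in HKC-8, 138 of 12811 in RCC4+VHL and 91 of 13623 in HepG2.

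**Figure D5:**
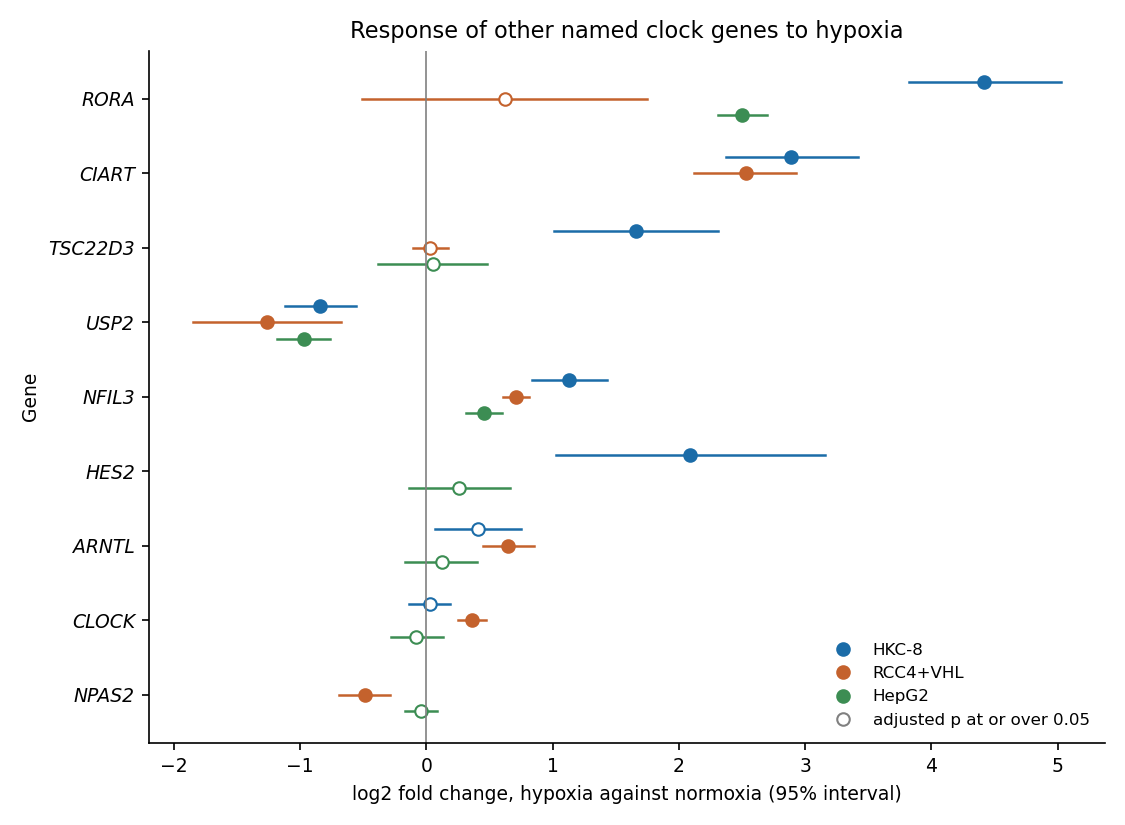
Log2 fold change of hypoxia against normoxia with 95% intervals for other named genes of the clock and the HES family. Filled points have an adjusted p under 0.05 in edgeR, and a missing point was not tested. RORA reaches 4.42 in HKC-8 cells, from 13 to 15 counts per normoxic sample, and USP2 lies at -0.84 or below in every line.

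A few members carry clock elements near their start, shown here since PER3, PER1 and NR1D2 are described above. Capitals mark the D-box TTATGTAA, its reverse complement TTACATAA or the E-box CACGTG, and the D-box letters TTATGTAA or TTACGTAA were found in 1.00% of promoters and in 3 of the 10 members, PER3, NR1D2 and PER2. In PER2 the letters TTACGTAA span bases -3 to 5 around the start, and that stretch is not shown. PER3 is shown at chr1:7844154-7844201 on the plus strand, upstream of the gene. NR1D2 is shown at chr3:23987398-23987445 and chr3:23987437-23987532 on the plus strand, and PER1 at chr17:8055870-8055915 on the minus strand. The NR1D2 and PER1 stretches lie inside introns, before a second RefSeq start for NR1D2 and downstream of the longest annotated start for PER1.
PER3 D-box: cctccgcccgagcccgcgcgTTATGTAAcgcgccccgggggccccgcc
NR1D2 D-box: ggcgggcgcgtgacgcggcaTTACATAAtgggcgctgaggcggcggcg
NR1D2 E-boxes: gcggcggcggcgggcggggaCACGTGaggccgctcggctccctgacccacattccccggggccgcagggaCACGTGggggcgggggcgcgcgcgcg
PER1 E-box: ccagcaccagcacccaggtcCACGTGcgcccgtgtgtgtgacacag

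The 5 genes most like BHLHE40 by Pearson r of log2 CPM over 18 samples, among 15307 genes, were P4HA2 (0.971), MOB3A (0.963), KIAA1715 (0.949), TMEM45A (0.945) and NDRG1 (0.934). For BHLHE41 they were TNIP1 (0.974), PAM (0.971), NUDT18 (0.970), VLDLR (0.967) and DHX32 (0.965). The 18 points share cell line, oxygen and library depth, and the values are a description. BHLHE41 itself had r = 0.801 with BHLHE40.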

How the data were processed

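The authors trimmed the polyA+ reads with Trim Galore 0.3.3, aligned them to GRCh37 with TopHat 2.0.8b and Bowtie 1.0.0, used SAMtools 0.1.19, and counted reads on UCSC genes with HTSeq 0.5.4p3 in intersection-strict mode. The deposited values are raw counts per gene, without normalization. Members were found by symbol, and the members and lists were chosen with earlier results of these data known. Everything from the counts on was computed with R 4.3.3, edgeR 4.0.16, DESeq2 1.42.0 and Python 3.11.15. Genes passing filterByExpr were scaled by TMM and tested with glmQLFit and glmQLFTest within each line, in an interaction fit of HKC-8 and HepG2, and among normoxic samples. P-values were adjusted by Benjamini-Hochberg over all genes tested, with 0.05 as threshold. The SE is the log2 fold change over the square root of F, and intervals are 95%. Printed CPM use TMM over all 18 samples, and RPKM divide CPM by the kilobases of the canonical GENCODE transcript. Tests were tried on simulated data with known changes.

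From the other lists, genes past the threshold with a log2 change of 1 or more in size in any line were named, up to 5 per list, with ARNTL, CLOCK and NPAS2 always and VEGFA, CA9, EGLN3 and ADM as reference. Likeness took the 5 genes with the highest Pearson r, with a prior count of 2. Total counts were 40915980 to 97984260, so 3 counts equal 0.0306 to 0.0733 CPM, a limit that covers counting error only. Replicate numbers in the labels are shared by normoxic and hypoxic samples. Deviations of same-numbered samples from group means correlated across genes at 0.109, 0.453 and 0.447 in HKC-8, all over 0.1, so the numbers were taken to pair these samples. The alternatives were DESeq2, median-of-ratios factors, total count alone, a replicate block, no filter, a minimum of 10 counts per sample, all 18 samples fitted together, and leaving out each sample. RefSeq promoters were matched for all 10 members. Chromatin data of the study were not used here.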

Additional observations from a re-analysis of the deposited data

Results flagged for a closer look

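The responses of HKC-8 and HepG2 cells differed by the interaction test of edgeR for PER3 (log2 difference 0.58) and, among the other named genes, for RORA (1.91), NFIL3 (0.67), TSC22D3 (1.60) and HES2 (1.82), each more positive in HKC-8. HES2 had 3 to 21 counts per sample in HKC-8 and lost this call in 1 of the 12 fits without 1 sample. RORA had 13 to 15 counts per sample in normoxic HKC-8 cells, and its level in hypoxic HKC-8 cells stayed below that of normoxic HepG2 cells. The reference genes CA9 (-3.54), EGLN3 (-2.93) and ADM (-1.31) differed the other way, more positive in HepG2. The 4th reference gene, VEGFA, was more positive in HKC-8 without a call (0.33, adjusted p = 0.0975), and was called in 3 of 18 alternatives, with the replicate block (0.0401), in the fit of all 18 samples (0.0365) and without HKC-8 hypoxia replicate 2 (0.0135). In normoxic HepG2 cells CA9 had 18 to 31 counts per sample and EGLN3 had 18 to 63 (0.430 to 1.43 CPM). NPAS2 was lower in all hypoxic than in all normoxic RCC4+VHL samples (log2 fold change -0.49) and was flagged because the CPM of HKC-8 had the reverse order. The HKC-8 samples had 0 to 4 counts, with 1 count both in normoxia replicate 1 and in hypoxia replicate 3, so an opposite direction is not shown there, and the difference was not tested.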

How the results depend on the processing

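No called value of a named gene changed sign under any alternative. In all 13 alternatives of each line BHLHE40 and BHLHE41 stayed past the threshold: in HKC-8 the log2 fold change lay between 3.15 and 3.43 for BHLHE40 and between 2.54 and 2.86 for BHLHE41, in RCC4+VHL between 1.30 and 1.44 and between 1.01 and 1.17, and in HepG2 between 2.70 and 3.14 and between 2.42 and 2.91. In the HKC-8 and HepG2 comparison of responses, the uncalled difference ranged from 0.13 to 0.58 for BHLHE40 and from -0.23 to 0.28 for BHLHE41.

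With 1 fit of all 18 samples the genes called were 5013 in HKC-8 (main 2757), 3286 in RCC4+VHL (main 6423) and 2219 for the difference in response (main 1399), the members called lower in RCC4+VHL were 0 and those called in the difference were 2. The 3 lines share 1 estimate of the spread in that fit. With the replicate block the genes called were 5755 in HKC-8, with 4 members higher, and 3018 for the difference in response, with 4 members. For the difference in response the block pairs the HepG2 samples too. In RCC4+VHL the block gave 6494 genes and in HepG2 5857 (main 5329), and it changed no member's call in either line. In these 2 lines the numbers were not taken to pair the samples, since not every correlation of same-numbered samples was over 0.1: they were -0.0103, 0.0333 and 0.0147 in RCC4+VHL and 0.165, 0.0617 and 0.184 in HepG2, where every sample correlated best with its own number, a hint from the data. In HKC-8, where the numbers were taken as pairs, not every sample did. The block changed no other member's call.

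Without 1 sample at a time, the genes called ranged from 1013 to 3283 in HKC-8, with 1013 without normoxia replicate 1, 1455 without normoxia replicate 2, 1092 without hypoxia replicate 1 and 1712 without hypoxia replicate 3. They ranged from 911 to 1890 for the difference in response, with 911 without HepG2 hypoxia replicate 1, and the members called there from 0 to 2. Members called lower in HepG2 ranged from 1 to 4, with 1 without hypoxia replicate 1. BHLHE41 in normoxic HepG2 against HKC-8 ranged from -1.00 to -0.58. The cause of these changes was not tested. No replicate block was fitted among normoxic lines, where the numbers tie no samples together. At 12 to 20 counts in normoxic HepG2 cells, BHLHE41 is limited by depth.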
